A study of Homo sapiens with 6 samples.

Results

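The genes described here encode laminin chains and the proteins that link laminin into basement membranes: LAMA4, LAMA5, LAMB1, LAMB2, LAMB3, LAMC1, NID1 (nidogen 1), HSPG2 (perlecan) and AGRN (agrin). They were taken by gene name from the deposited count table and are 9 of its 58735 genes. RNA was sequenced from Ovcar8, an established line of human high-grade serous ovarian carcinoma grown in RPMI-1640. Serum-starved cells (3 libraries) had been without serum for 48 h, and the comparison cells (3 libraries) were kept in 5% fetal bovine serum (FBS) for those 48 h. The comparison addressed what the cells do when serum, the source of growth factors in culture, is taken away. Nothing in the labels ties a library to its own culture, so the replicate spread behind each p-value may be technical. In a bulk sample, fewer cells of a type and less RNA per cell cannot be told apart.

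Basement membranes are sheets of matrix beneath epithelia and around vessels, muscle and nerve. A laminin is a secreted cross-shaped trimer of 1 α, 1 β and 1 γ chain. The short arms polymerise into a network, while the end of the α chain binds cell-surface integrins and dystroglycan. Nidogen bridges the laminin γ1 chain to type IV collagen, and perlecan and agrin are heparan sulfate proteoglycans that attach to laminin and to the cell surface. Carcinoma cells make and secrete laminins of their own.

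Promoter sequences are shown for the chains of the α5β2γ1 laminin, whose α chain gene rose most here, and for LAMB3, whose groups differed least. They come from RefSeq (GRCh38.p14), which gave a window for 8 of the 9 genes. Each run comes from the 250 bases before the RefSeq start of transcription and leaves out bases that GENCODE 29 places in an exon, so the LAMB2 run stops 68 bases and the LAMB3 run 20 bases short of that start. The LAMB3 run lies before the most downstream of its starts. Capitals mark matches on either strand to the GC box GGGCGG or the AP-1 site TGANTCA. The runs are LAMA5 chr20:62367313-62367562 (minus strand), LAMB2 chr3:49133119-49133300 (minus), LAMC1 chr1:183023170-183023419 (plus) and LAMB3 chr1:209651395-209651624 (minus).
LAMA5: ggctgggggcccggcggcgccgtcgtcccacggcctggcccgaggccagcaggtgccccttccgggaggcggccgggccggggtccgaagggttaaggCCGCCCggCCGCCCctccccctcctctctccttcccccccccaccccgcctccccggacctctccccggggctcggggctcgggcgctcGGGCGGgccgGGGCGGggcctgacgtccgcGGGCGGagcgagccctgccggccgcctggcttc
LAMB2: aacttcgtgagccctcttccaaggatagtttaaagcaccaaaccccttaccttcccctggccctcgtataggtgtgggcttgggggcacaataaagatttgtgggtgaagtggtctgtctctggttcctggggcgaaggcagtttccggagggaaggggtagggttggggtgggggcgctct
LAMC1: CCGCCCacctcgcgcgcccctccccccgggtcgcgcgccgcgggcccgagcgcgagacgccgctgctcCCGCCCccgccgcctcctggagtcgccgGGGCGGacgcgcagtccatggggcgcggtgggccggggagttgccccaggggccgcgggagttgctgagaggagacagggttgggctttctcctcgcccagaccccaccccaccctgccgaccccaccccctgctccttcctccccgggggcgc
LAMB3: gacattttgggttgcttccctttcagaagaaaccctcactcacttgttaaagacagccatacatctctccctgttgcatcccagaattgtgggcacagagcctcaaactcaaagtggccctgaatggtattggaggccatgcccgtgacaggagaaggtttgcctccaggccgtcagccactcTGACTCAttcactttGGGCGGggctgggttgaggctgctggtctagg
The LAMA5 run holds 5 GC boxes and that of LAMC1 holds 3. The LAMB3 run has 1 GC box and 1 AP-1 site. The windows before the other RefSeq starts of LAMB3 each hold 1 GC box and no AP-1 site. The LAMB2 run has neither motif, although the whole 250-base window of LAMB2 holds 1 GC box in the part left out. Over the 250 bases before the start in 35116 RefSeq promoters, 42.6% hold a GC box and 6.57% an AP-1 site, with overlapping matches counted separately. Of the 3 other motifs searched on both strands, TATAAA occurs in 10.7% of promoters, CACGTG in 6.34% and the sterol element TCACNCCAC in 0.88%, and none of them matched in these 4 runs. These matches describe letters only.

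The libraries held 17288356, 18201183 and 19558484 counts in serum-starved cells and 17882533, 17292872 and 16379416 counts with FBS, in replicate order. The median log2 deviation of genes in the lowest and highest decile of transcript GC content was -0.70 and 0.48 in serum-starved replicate 1, 0.29 and -0.47 in serum-starved replicate 3, and 0.79 and -0.27 in FBS replicate 1. Genes of the longest length decile deviated by 0.47 in serum-starved replicate 3. The 8 tested members had exon lengths of 4688 to 18104 bases and GC contents of 48.0% to 66.2%, against medians of 4798.5 bases and 50.7% over all genes tested. Fold changes of the tested members are therefore given also after a correction for GC content and gene length in each library. The epithelial markers KRT8, KRT18, KRT7 and PAX8 were well covered, whereas KRT19 had 0 to 4 counts and MUC16, MECOM and SOX17 had none. The epithelial list summed to 8453 to 11781 CPM in serum-starved libraries and 6981 to 11895 CPM with FBS. Of 8 fibroblast markers only COL1A1 and PDGFRB passed the low-count filter. The list summed to 803 to 865 CPM (counts scaled by TMM-adjusted library size) in serum-starved libraries and 334 to 599 CPM with FBS, nearly all of it COL1A1, while COL1A2 and DCN had no count in any library. Its part in the results on the members was not tested. The endothelial list summed to 3.90 to 7.88 CPM in serum-starved libraries and 3.20 to 5.06 CPM with FBS, and the immune list to 1.76 to 1.84 CPM and 1.22 to 2.53 CPM.

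Without serum, LAMA5 transcripts rose 3.84-fold (95% interval 2.39 to 6.17), and LAMA5 was the 1 member that passed the test over all genes. It encodes the α5 chain, the widespread α chain of mature epithelial and vascular basement membranes. The other 7 tested members had fold estimates from 1.14 (LAMB3) to 2.20 (HSPG2), none of which passed, and no member had an estimate below 1. LAMA4 was almost undetected. The test was edgeR's quasi-likelihood test on the counts, with p-values adjusted by Benjamini-Hochberg over 13772 genes and a threshold of 0.05, which 0.24% of all genes passed as higher and 0.0436% as lower in serum-starved cells.

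**Figure D1:**
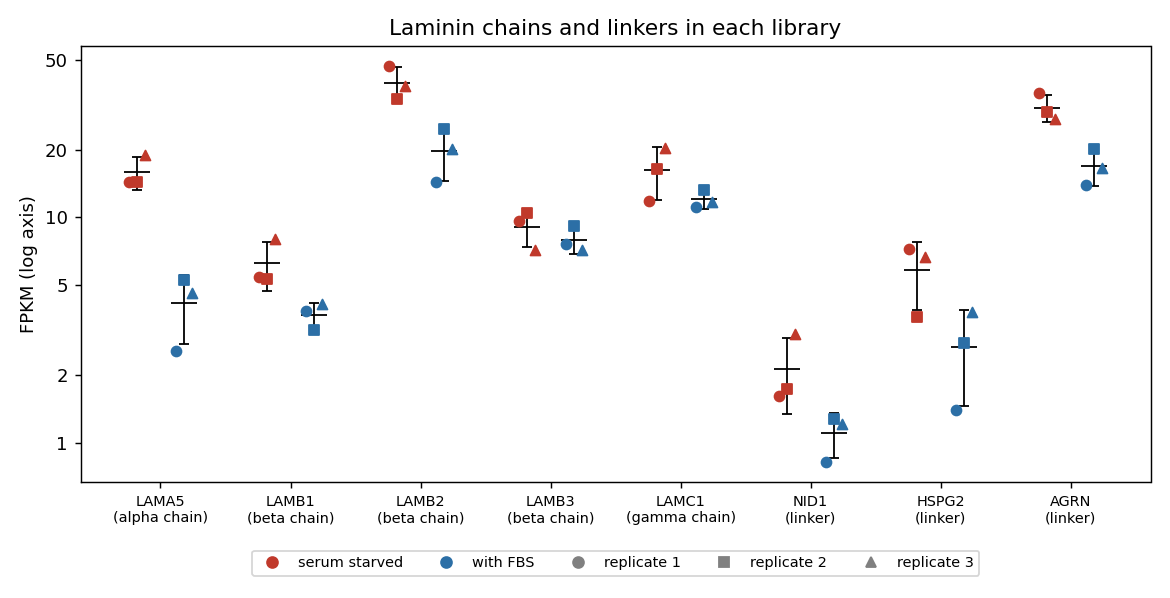
FPKM (log axis) of the 8 tested members in each library, serum starved left of FBS for each gene; symbols mark the replicate number, bars the mean and SD of 3 libraries. The serum-starved libraries lie above all FBS libraries for LAMA5, LAMB1, LAMB2, NID1 and AGRN, and the groups overlap for LAMB3, LAMC1 and HSPG2.

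Among the α chains, LAMA5 (ENSG00000130702, chromosome 20, 62307955 to 62367312, minus strand, GRCh38) had 209, 211 and 279 CPM in serum-starved libraries and 38.1, 76.8 and 67.2 CPM with FBS, in replicate order. The lowest serum-starved library was far above the highest FBS library. The log2 fold change was 1.94 with a standard error (SE) of 0.33 (edgeR adjusted p = 0.0121). After the GC and length correction it was 1.63 (SE 0.25, edgeR adjusted p = 0.00508). The call was lost when FBS replicate 1 (log2 fold change 1.69, edgeR adjusted p = 0.254), FBS replicate 3 (2.03, 0.0681) or serum-starved replicate 2 (2.00, 0.0676) was left out, and it held in the fits without each of the other 3 libraries. The LAMA5 gene shares 244 exon bases with ADRM1 on the opposite strand, a proteasome ubiquitin receptor gene with 5639, 4763 and 3929 counts in serum-starved libraries and 6759, 7310 and 5287 with FBS. ADRM1 counts overlapped between the groups and were lowest in serum-starved replicates 2 and 3. LAMA5-AS1, an antisense gene sharing 118 exon bases, had 0, 3 and 7 counts in serum-starved libraries and 10, 1 and 0 with FBS. Whether counting used strand is not given in the sources used here, and the part of these shared bases in the LAMA5 value was not tested.

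LAMA4 (ENSG00000112769, chromosome 6, 112108760 to 112254939) encodes the α4 chain, typical of endothelial and mesenchymal basement membranes. It had 3, 0 and 0 counts in serum-starved libraries and 1, 0 and 1 with FBS. All 6 values lie at or below 3 counts, the limit that a count of 0 allows, so a difference was not detectable at this depth. The remaining α chain genes were read beside these. LAMA1, the α1 chain of early embryonic basement membranes, had 93.2, 83.0 and 143 CPM in serum-starved libraries and 54.8, 60.5 and 63.6 CPM with FBS, which do not overlap. Its log2 fold change of 0.84 (95% interval 0.22 to 1.45) did not pass (edgeR adjusted p = 0.331). LAMA2, the muscle α2 chain, had 2, 16 and 19 counts in serum-starved libraries and 21, 14 and 28 with FBS (log2 fold change -0.97, edgeR adjusted p = 0.740). After the GC and length correction the LAMA2 estimate was -1.16 (edgeR adjusted p = 0.491). At these low counts, every corrected serum-starved value was then below every FBS value. LAMA3, the α3 chain of epidermal laminin, had 2, 22 and 34 counts in serum-starved libraries and 8, 2 and 6 with FBS, and fell below the filter.

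Levels of different genes are compared per length, as FPKM. Summed over the 5 α chain genes, the level was 20.1, 19.6 and 27.9 FPKM in serum-starved libraries and 6.02, 9.13 and 8.74 FPKM with FBS. LAMA5 made up 71.2%, 73.2% and 67.9% of that sum in serum-starved libraries and 42.6%, 58.0% and 52.7% with FBS. LAMA1 made up nearly all the rest, at 28.6%, 26.0% and 31.4% in serum-starved libraries and 55.2%, 41.1% and 44.9% with FBS. The shares of LAMA5 and LAMA1 did not overlap between groups, and LAMA1 was the larger of the pair only in FBS replicate 1. Each share is close to what the other leaves, so the pair is not 2 separate results. The LAMA1 share was lower in serum-starved libraries although the level of LAMA1 was higher there. These shares are descriptions, and no test was made of them.

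**Figure D2:**
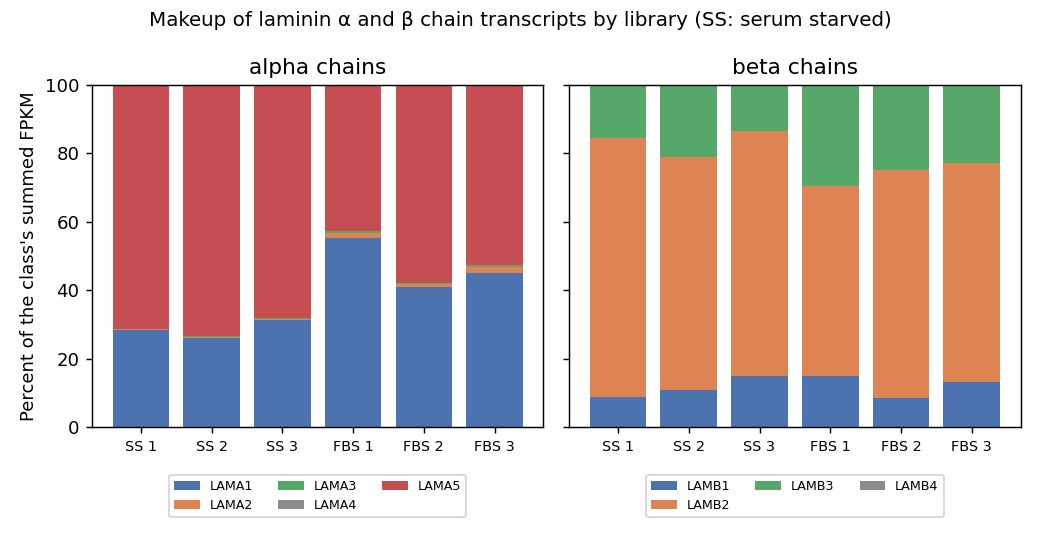
Percent of the summed FPKM of the α and of the β chain genes taken by each gene, in the 3 serum-starved (SS) libraries and then the 3 FBS libraries; bars add to 100%. LAMA5 takes 67.9% to 73.2% of the α sum in serum-starved libraries and 42.6% to 58.0% with FBS, and LAMB3 takes 13.4% to 21.1% of the β sum in serum-starved libraries and 22.7% to 29.4% with FBS.

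Of the β chains none passed. LAMB2 (ENSG00000172037, chromosome 3, 49121114 to 49133118) encodes the β2 chain found at neuromuscular junctions and in kidney and vessel basement membranes. It had 331, 237 and 270 CPM in serum-starved libraries and 103, 173 and 141 CPM with FBS. Every serum-starved library was above every FBS library, and serum-starved replicate 1 was the highest. Its log2 fold change was 1.01 (95% interval 0.36 to 1.65, edgeR adjusted p = 0.256). It passed without serum-starved replicate 3 (log2 fold change 1.03, edgeR adjusted p = 0.0458). In that fit 0.875% of all genes passed as higher.

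LAMB1 (ENSG00000091136, chromosome 7, 107923799 to 108003255), the β1 chain of most embryonic and epithelial laminins, had 45.1, 44.6 and 67.4 CPM in serum-starved libraries and 32.4, 26.2 and 34.2 CPM with FBS. The groups did not overlap, and serum-starved replicate 3 stood above the other serum-starved libraries. With a log2 fold change of 0.76 (95% interval 0.14 to 1.38) it did not pass (edgeR adjusted p = 0.376). LAMB1 shares 70 exon bases with DLD and 221 with AC005046.1, both on the opposite strand. DLD, the dihydrolipoamide dehydrogenase gene, had 97, 164 and 192 counts in serum-starved libraries and 367, 177 and 160 with FBS. AC005046.1 had 3 counts in FBS replicate 1 and none elsewhere.

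LAMB3 (ENSG00000196878, chromosome 1, 209614870 to 209652466) encodes the β3 chain, part of the laminin of epidermal anchoring structures. It had 46.2, 50.3 and 34.7 CPM in serum-starved libraries and 37.0, 43.8 and 34.2 CPM with FBS. The groups overlapped, with serum-starved replicate 3 close to the lowest FBS library. The log2 fold change was 0.19, and its 95% interval of -0.41 to 0.79 allows a fall as well as a rise of up to 1.73-fold (edgeR adjusted p = 0.873). LAMB3 made up 15.5%, 21.1% and 13.4% of the β chain FPKM in serum-starved libraries and 29.4%, 24.8% and 22.7% with FBS, which do not overlap, while LAMB2 made up 68.1% to 75.8% in serum-starved libraries and 55.7% to 66.7% with FBS. The shares of LAMB1 overlapped, and LAMB4 had no count in any library. A lower share of LAMB3 is not a lower level, since each share depends on the other genes of the class.

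LAMC1 (ENSG00000135862, chromosome 1, 183023460 to 183145592) encodes γ1, the γ chain of most laminins and the one that nidogen binds. It had 102, 143 and 176 CPM in serum-starved libraries and 97.0, 114 and 100.1 CPM with FBS. Serum-starved replicate 1 lay among the FBS libraries, so the groups overlapped. LAMC1 had a log2 fold change of 0.44 (95% interval -0.18 to 1.05, edgeR adjusted p = 0.643). LAMC3, the γ3 chain, had 90.7, 71.1 and 67.4 CPM in serum-starved libraries and 45.4, 76.0 and 74.9 CPM with FBS (log2 fold change 0.22, edgeR adjusted p = 0.849). The FPKM of LAMA5 per FPKM of LAMC1 was 1.21, 0.869 and 0.931 in serum-starved libraries and 0.231, 0.398 and 0.395 with FBS. LAMA5 thus stood near the level of LAMC1 in serum-starved libraries and below it in every FBS library.

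The linkers had fold estimates close to those of LAMB2, and none passed. NID1 (ENSG00000116962, chromosome 1, 235975830 to 236065162), the laminin to collagen bridge, had 9.65, 10.5 and 18.2 CPM in serum-starved libraries and 4.98, 7.63 and 7.21 CPM with FBS. The groups did not overlap, although serum-starved replicate 3 was much higher than the other serum-starved libraries. NID1 had a log2 fold change of 0.96 (95% interval 0.13 to 1.78, edgeR adjusted p = 0.401). NID2, the related nidogen 2, had 1.90, 4.23 and 4.14 CPM in serum-starved libraries and 1.58, 2.38 and 3.32 CPM with FBS, which overlap (edgeR adjusted p = 0.789). NTN4, a netrin with a laminin-like N-terminal domain that binds γ chains, had 3.19, 2.47 and 3.70 CPM in serum-starved libraries and 2.03, 2.14 and 1.95 CPM with FBS, which do not overlap (log2 fold change 0.61, edgeR adjusted p = 0.724).

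HSPG2 (ENSG00000142798, chromosome 1, 21822245 to 21937297) encodes perlecan, whose heparan sulfate chains hold growth factors. It had 134, 67.0 and 124 CPM in serum-starved libraries and 26.4, 51.1 and 70.3 CPM with FBS. Serum-starved replicate 2 lay below FBS replicate 3, so the groups overlapped. HSPG2 had a log2 fold change of 1.14 (95% interval 0.37 to 1.90, edgeR adjusted p = 0.288). It was 0.83 without FBS replicate 1 and 1.49 without FBS replicate 3, and passed in neither fit. HSPG2 shares 2121 exon bases with LDLRAD2, which had no count in any library. The same holds for the genes that share exon bases with AGRN (AL645608.5), LAMB3 (MIR4260) and LAMA4 (Z99289.1), and for MIR4758 in LAMA5.

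AGRN (ENSG00000188157, chromosome 1, 1020123 to 1056118) encodes agrin, which clusters acetylcholine receptors at nerve endings and binds laminin and dystroglycan elsewhere. It had 391, 327 and 301 CPM in serum-starved libraries and 156, 220 and 181 CPM with FBS. The groups did not overlap, and serum-starved replicate 1 was the highest. AGRN had a log2 fold change of 0.87 (95% interval 0.25 to 1.49, edgeR adjusted p = 0.313). After the GC and length correction it was 0.54 (95% interval 0.15 to 0.93, edgeR adjusted p = 0.169). AGRN had the highest GC content of the tested members.

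**Figure D3:**
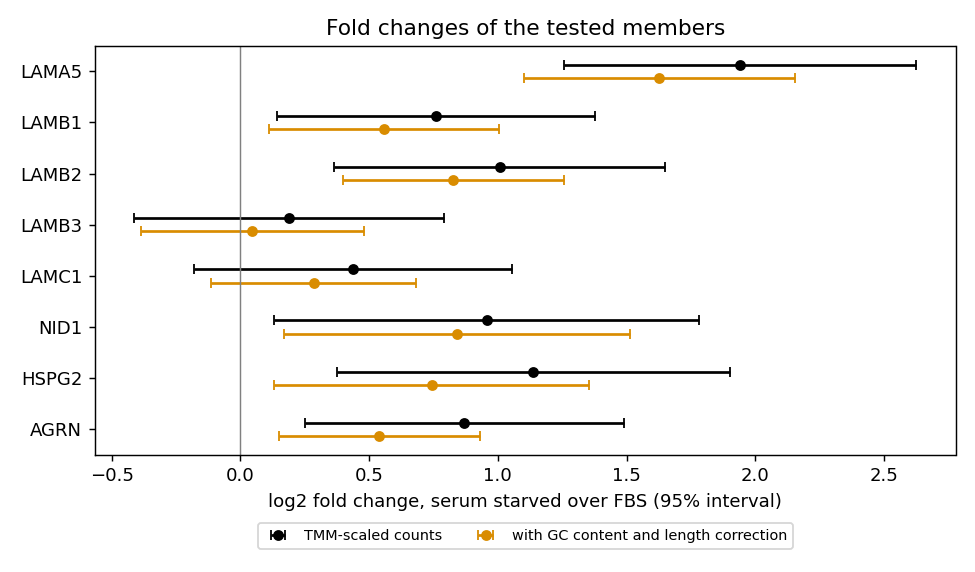
log2 fold change (serum starved over FBS) with its 95% interval for the 8 tested members, from TMM-scaled counts (black) and after correction for GC content and gene length (orange). All 8 estimates lie above 0 and each is smaller after the correction; the intervals of LAMB3 and LAMC1 include 0 in both fits.

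Set side by side, all 8 tested members had a log2 fold change above 0, against 48.5% of all genes tested. Their median was 0.91, against -0.02 over all genes. In 5 of the 8 every serum-starved library was above every FBS library, which held for 10% of all genes, and in none was the order the other way round (7.65% of all genes). Of the 8, 6 had an unadjusted p under 0.05 with higher levels in serum-starved cells, against 6.01% of all genes (10.4% in either direction), and 1 passed after adjustment. With the correction for GC content and length the median was 0.65, each of the 8 estimates moved towards 0, and LAMA5 was still the 1 member that passed (0.588% of all genes passed as higher). In 5 of the 8 every corrected serum-starved value was still above every corrected FBS value, against 11.1% of all genes. The corrected log2 fold changes of the members that did not pass were 0.56 for LAMB1, 0.83 for LAMB2, 0.05 for LAMB3, 0.29 for LAMC1, 0.84 for NID1, 0.74 for HSPG2 and 0.54 for AGRN. The genes were chosen as a family with earlier results of these data known, and these counts describe them without testing the family.

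By FPKM, the order in serum-starved cells was LAMB2 (39.7 ± 6.88), AGRN (30.8 ± 4.29), LAMC1 (16.2 ± 4.28), LAMA5 (15.9 ± 2.67), LAMB3 (9.09 ± 1.69), LAMB1 (6.27 ± 1.55), HSPG2 (5.83 ± 1.95) and NID1 (2.13 ± 0.782), as mean ± SD of 3 libraries, with LAMA4 last. With FBS it was LAMB2 (19.8 ± 5.22), AGRN (16.9 ± 3.09), LAMC1 (12.02 ± 1.14), LAMB3 (7.98 ± 1.08), LAMA5 (4.15 ± 1.42), LAMB1 (3.71 ± 0.485), HSPG2 (2.66 ± 1.20) and NID1 (1.10 ± 0.248), again with LAMA4 last. LAMA5 stood above LAMB3 in serum-starved cells and below it with FBS, and in both groups their ranges did not overlap. LAMB2 and AGRN overlapped in both groups, as did LAMB1 and HSPG2, so those neighbours are not ordered beyond their spread. In serum-starved cells LAMC1 and LAMA5 also overlapped, and so did LAMB3 and LAMB1; with FBS, LAMA5 and LAMB1 did.

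Over the 6 libraries, log2 CPM of LAMB2 and AGRN had the highest Pearson correlation of any pair of members (0.98), and LAMA5 was most like LAMB2 (0.95). NID1 was the member most like LAMC1 (0.89) and LAMB1 (0.87). LAMB3 was at most 0.60 with any member (AGRN) and -0.11 with LAMB1. These values pool both groups, so they also carry the difference between the groups. They share the same 6 libraries, their depth and their GC and length trends, and are given without a test. Among 8866 protein-coding genes outside the family with a mean of at least 5 CPM, those closest to the mean standardised log2 CPM of the members over the 6 libraries were DYSF (r = 0.997), KSR1, AHDC1 and KIF3C (r = 0.996 each) and SDC3 (r = 0.995). DYSF, which encodes the membrane repair protein dysferlin, had 35.3, 36.7 and 46.1 CPM in serum-starved libraries and 4.12, 9.23 and 7.54 CPM with FBS (log2 fold change 2.50, edgeR adjusted p = 0.00312). KSR1, a scaffold of the RAF-MEK kinases, averaged 13.5 CPM in serum-starved libraries and 6.07 CPM with FBS, and KIF3C, a kinesin motor, 66.0 CPM in serum-starved libraries and 30.3 CPM with FBS. AHDC1 averaged 97.7 CPM in serum-starved libraries and 58.6 CPM with FBS, and none of these 3 passed. SDC3, the cell-surface proteoglycan syndecan-3, had 111, 102 and 149 CPM in serum-starved libraries and 30.2, 59.0 and 43.7 CPM with FBS (log2 fold change 1.45, edgeR adjusted p = 0.0621). All 5 have a GC content of 56.7% to 63.9% and exon lengths of 6403 to 12178 bases, above the medians of all genes. The mean profile of the members was 0.63, 0.59 and 0.91 in serum-starved libraries and -1.14, -0.37 and -0.62 with FBS. As these 5 genes were picked for following it, their fold changes are not separate results.

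Of 66 other genes of basement membranes in 5 lists, 51 were tested, 1 rose (0.24% of all genes), none fell (0.0436% of all genes), and 41 had a log2 fold change above 0 (48.5% of all genes). In 13 of the 51 every serum-starved library was above every FBS library (10% of all genes), and in 1 every serum-starved library was below (7.65% of all genes). In these uncorrected CPM that 1 was ITGB1, the integrin β1 subunit shared by most laminin-binding integrins and named here after its values were seen. It had 40.4, 61.0 and 79.3 CPM in serum-starved libraries and 124, 83.8 and 81.0 CPM with FBS, and did not pass (log2 fold change -0.68, edgeR adjusted p = 0.464). After the GC and length correction its log2 fold change was -0.38 (edgeR adjusted p = 0.317). The gene that rose was ITGB4 (ENSG00000132470, chromosome 17, 75721328 to 75757818), the integrin β4 subunit that with α6 binds laminin in hemidesmosomes. It had 107, 104 and 133 CPM in serum-starved libraries and 6.15, 19.96 and 25.9 CPM with FBS. The log2 fold change was 2.73 (SE 0.41, edgeR adjusted p = 0.00568), and it passed in all 6 fits that left out 1 library, with log2 fold changes of 2.32 to 3.15. With the GC and length correction the ITGB4 estimate was 2.64 (edgeR adjusted p = 0.00211). Its partner ITGA6, named here after its values were seen, had 23.7, 31.2 and 48.2 CPM in serum-starved libraries and 70.6, 39.9 and 44.3 CPM with FBS (log2 fold change -0.58, edgeR adjusted p = 0.559). The corrected log2 fold change of ITGA6 was -0.32 (edgeR adjusted p = 0.446), and every corrected serum-starved value was then below every FBS value. In all, 12 receptor genes were tested, of which 10 had a log2 fold change above 0 and 11 did not pass. The list's median was 0.43, and 0.32 after the GC and length correction. The integrin gene ITGA3 and the dystroglycan gene DAG1, also named after their values were seen, were higher in every serum-starved library than in every FBS library. ITGA3 had 1405, 1158 and 1311 CPM in serum-starved libraries and 458, 853 and 755 CPM with FBS. Its log2 fold change was 0.91 (edgeR adjusted p = 0.346), and that of DAG1 was 0.72 (edgeR adjusted p = 0.397).

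Of the other laminin chains and nidogen-like genes, 5 of 7 were tested and none passed (median log2 fold change 0.51, and 0.37 after the GC and length correction). Of the basement membrane collagens 7 of 10 were tested and none passed (median 0.28, and -0.02 after that correction). COL4A2, a chain of the type IV collagen network, had 326, 261 and 315 CPM in serum-starved libraries and 176, 264 and 253 CPM with FBS, and COL18A1, the collagen XVIII gene, 39.3, 43.6 and 35.8 CPM in serum-starved libraries and 23.4, 46.0 and 40.7 CPM with FBS. Both overlapped between groups, and both log2 fold changes (0.38 and 0.11) were below 0 after the GC and length correction (-0.02 and -0.12). Of the genes for assembly, cross-linking and glycosylation 16 of 19 were tested and none passed (median 0.25, corrected 0.14). SPARC, a collagen-binding matrix protein, had 664, 569 and 710 CPM in serum-starved libraries and 294, 340 and 418 CPM with FBS, which do not overlap (log2 fold change 0.88, 95% interval 0.25 to 1.52, edgeR adjusted p = 0.315). SERPINH1, a collagen chaperone, had 555, 542 and 359 CPM in serum-starved libraries and 382, 568 and 536 CPM with FBS (edgeR adjusted p = 0.984). Of 16 other components 11 were tested and none passed (median 0.42, corrected 0.34). FN1, fibronectin, had 401, 1767 and 2621 CPM in serum-starved libraries and 163, 686 and 932 CPM with FBS, which overlap (log2 fold change 1.43, edgeR adjusted p = 0.398), and TGFBI, a secreted integrin ligand, 91.3, 173 and 285 CPM in serum-starved libraries and 72.6, 227 and 358 CPM with FBS (edgeR adjusted p = 0.894).

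**Figure D4:**
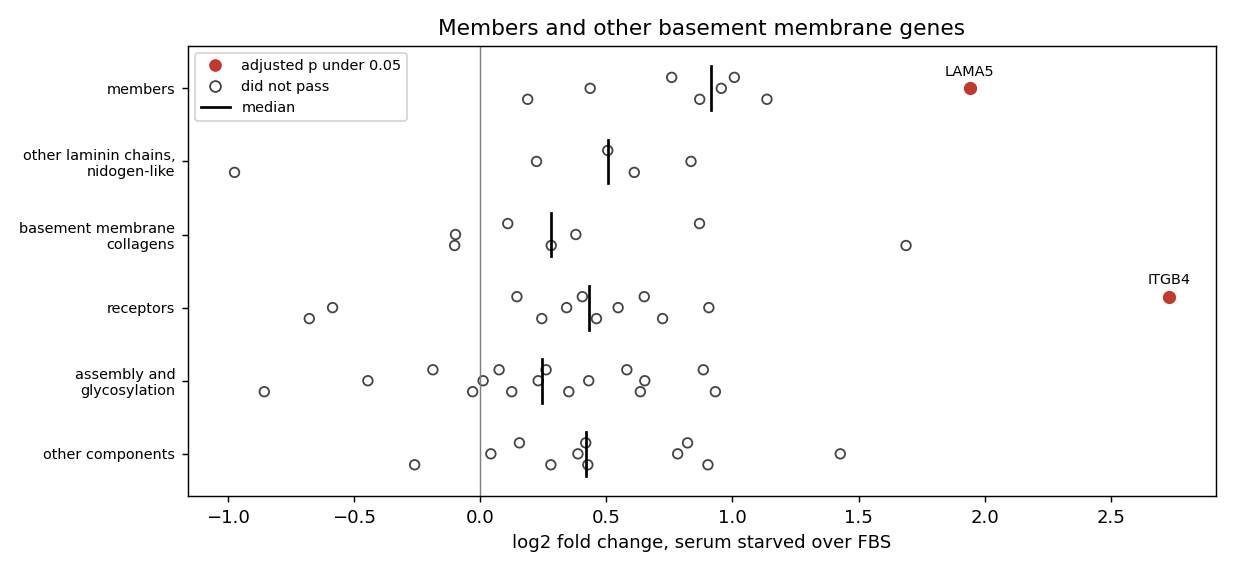
log2 fold change (serum starved over FBS) of the 8 tested members and of 51 other basement membrane genes in 5 lists, 1 circle per gene; filled circles passed at an adjusted p under 0.05, and vertical bars are medians. LAMA5 and ITGB4 are the filled circles, and each of the 6 medians lies above 0. The fold changes shown are without the GC and length correction, after which the median of the basement membrane collagens was -0.02.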

How the data were processed

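Counts per gene and library were deposited by the authors as whole numbers, and FPKM values by the authors in a second table. The submitters' processing notes name STAR (2.6.1), the GRCh38 build and DESeq2; their roles, the counting tool and its strand setting are not given. Gene positions matched GENCODE 29 for all 58735 genes. For genes above 20 counts the FPKM equalled counts per exon length scaled by DESeq2 size factors. Samples were grouped by the treatment in their titles.

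Genes were kept with filterByExpr in edgeR 4.0.16 (minimum count 10, minimum total 15), scaled with TMM and compared with glmQLFit (robust) and glmQLFTest in R 4.3.3. CPM are TMM-normalized, and a count of 3 in a library corresponded to 0.132 to 0.204 CPM. Such limits cover counting error only, and no molecular identifiers were counted. The intervals include the spread between the libraries of a group, which may be technical. The 95% interval of a log2 fold change uses its SE (size over the square root of F) and the fit's degrees of freedom. The correction for GC content and length enters splines with 5 degrees of freedom per library as offsets. The alternatives (other scalings and filters, DESeq2 1.42.0, limma 3.58.1 with voom or on FPKM, a replicate block, each library left out) are given at the end. The main fit and most alternatives were run on simulated counts. Not run on them were limma on log2(FPKM + 0.1), limma on unfiltered FPKM and the fits that left out a library. The simulated counts held no GC, length or replicate effect, so that run cannot show how the fits deal with such effects. The members, the 5 lists, the markers and the alternatives were chosen with earlier results of these data known. Named beside the members were the other laminin-related genes with counts, passing list genes or, where none passed, the 2 with the highest FPKM, the 5 genes most like the members, and overlapping genes. The receptor genes ITGB1, ITGA6, ITGA3 and DAG1 fall outside that rule and were named after their values were seen. The list of other laminin chains was drawn up with 1 further gene, which was taken out and is not reported here.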

Additional observations from a re-analysis of the deposited data

How the results depend on the processing

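Over 19 alternatives, the log2 fold changes of the 8 tested members stayed above 0 in all 152 values, and 147 kept their side of the threshold. LAMA5 ranged from 1.60 to 2.16. The number of members that passed, 1 as reported, was 1 in every alternative except 0 with limma on log2(FPKM + 1) without a filter (LAMA5 at 1.74, limma adjusted p = 0.375) and 0 to 2 when a library was left out. Without serum-starved replicate 3 it was 2 (LAMA5 and LAMB2), and without FBS replicate 1, FBS replicate 3 or serum-starved replicate 2 it was 0. Over all genes 39 passed. The count was 156 with DESeq2, 107 with the GC and length correction, 25 with library totals alone, 127 without a low-count filter, 2 with limma on log2(FPKM + 1) without a filter, 145 with the replicate block and that correction, and 4 (without FBS replicate 1) to 257 (without serum-starved replicate 3) when a library was left out. The cause was not tested.

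Replicate numbers come from the titles. Deviations of same-numbered libraries from their group means correlated at -0.26, 0.10 and -0.08, and those of differently numbered libraries at -0.24 to 0.26. These correlations over all genes carry the GC and length trends of the libraries and cannot decide whether the numbers pair the samples. With the replicate block 43 genes passed, and LAMA5 was at 1.99 (edgeR adjusted p = 0.00361). Among the other named genes the sign of COL18A1 turned with the GC and length correction (-0.12), with that correction and the block (-0.12) and without FBS replicate 1, and that of COL4A2 with the correction (-0.025) and with the block added (-0.016). With 1 library left out in turn, COL18A1 ranged from -0.14 to 0.32, SERPINH1 from -0.19 to 0.14 and TGFBI from -0.73 to 0.31. FN1 passed without a low-count filter (1.43, edgeR adjusted p = 0.037) and ITGB4 did not pass with limma on unfiltered FPKM (2.42, adjusted p = 0.311). LAMA4 was too low for any of these fits to bear on it.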
